A study of Mus musculus with 12 samples.

Results

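The genes of fatty acid synthesis, elongation and desaturation were followed as 10 named rows of a kidney count table of 55487 gene identifiers. They were Fasn, Acaca and Acacb (synthesis), Elovl1, Elovl5 and Elovl6 (elongation), and Scd1, Scd2, Fads1 and Fads2 (desaturation). They were picked by name from the pathway. RNA of mouse kidney cortex was sequenced in 4 groups of 3 libraries. Ctrl mice are labelled wild type and sham, and by the study's methods they carry floxed alleles of Gfer, the gene of augmenter of liver regeneration (ALR), without Cre. In PT-KO mice, labelled as an ALR knockdown with sham surgery, Ggt1-driven Cre removes the floxed alleles from proximal tubule cells, so other cells of the cortex keep the gene. Injured Ctrl and injured PT-KO mice (Ctrl+I/R and PT-KO+I/R in the plots) had both kidneys clamped for 22 min and were sampled at 24 h of reperfusion (I/R, ischaemia and reperfusion), so that Ctrl and PT-KO alone stand for sham mice. All mice were of a mixed C57BL/6 background and 6 to 8 weeks old by the methods. Whether each library is 1 animal is not stated in the labels, so p-values measure the spread between libraries.

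Cytosolic fatty acid synthesis starts when acetyl-CoA carboxylase makes malonyl-CoA, which fatty acid synthase then builds into palmitate. Elongases of the endoplasmic reticulum lengthen palmitate and dietary fatty acids, and desaturases place double bonds in them, so together they set the chain length and unsaturation of membrane lipids. SREBP-1c and ChREBP are the best known activators of these genes in liver. The proximal tubule, the main cell mass of the cortex, burns fatty acids for most of its energy.

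Libraries held 12165089 to 23123693 counts. Gfer, the targeted gene, stood at 12.7, 11.4 and 14.4 CPM (a count relative to the total of its library, scaled by the trimmed mean of M values over the 12 libraries) in Ctrl libraries 1, 2 and 3, and at 9.97, 17.1 and 15.0 in PT-KO libraries 1, 2 and 4. After I/R it stood at 15.3, 20.0003 and 17.6 in injured Ctrl libraries 1, 2 and 4, and at 21.6, 22.8 and 21.6 in injured PT-KO libraries 2, 3 and 4. It was not lower in either knockout group, and counts per gene do not show which exons are left, so the genotype labels could not be checked by it. Ctrl libraries 1 and 2 held 22402 and 19755 counts of Xist, the RNA of the inactive X, and 0 of Y-linked genes, while the other 10 libraries held 1 to 11 counts of Xist and 3109 to 5251 Y-linked counts. The Ctrl group thus has 2 libraries of female type and every other group has none, so the values of the 10 genes in comparisons with Ctrl are also given without these 2 libraries. The summed CPM of 9 proximal tubule markers was 12765 to 14392 in Ctrl and 12872 to 14871 in PT-KO, 3433 to 8316 in injured Ctrl and 2280 to 2878 in injured PT-KO. Between the injured groups, the marker sums of several other cell types did not overlap. They were 152 to 186 CPM in injured Ctrl and 52.6 to 91.5 in injured PT-KO for 3 fibroblast markers, 61.1 to 96.1 and 41.4 to 52.0 for 4 macrophage markers, 0.885 to 5.12 and 0.171 to 0.516 for 4 T and B cell markers, and 72.1 to 189 and 37.1 to 42.8 for 3 erythroid markers, each sum being lower in the knockout. They were 8.16 to 35.9 and 40.1 to 60.1 CPM for 4 neutrophil markers and 275 to 299.6 and 314 to 351 for 4 endothelial markers, both sums being higher in the knockout. The T and B cell values were near the floor, and 0 of those 4 markers passed the filter between the injured groups. Of the 4, 3 had no counts in injured PT-KO library 2, 1 in library 3 and 2 in library 4. Members of a list did not always go the same way. The fibroblast difference lay in Col1a1 (mean of 125.7 CPM in injured Ctrl and 11.5 in injured PT-KO), with Pdgfra at 28.6 and 34.4 and Dcn at 20.2 and 20.8. The macrophage marker Cd68 had the higher mean in the knockout (15.5 and 26.3), and the endothelial marker Plvap (78.1 and 51.2) and the neutrophil marker Csf3r (6.53 and 5.37) the lower one. The part of these cell types in the results was not tested. In bulk cortex, fewer cells of a type and less RNA per cell cannot be told apart. Scaling by total counts in place of the trimmed mean moved the median log2 fold change of all genes to -0.21 in injured PT-KO against injured Ctrl (1978 genes higher and 5080 lower, in place of 3444 and 3725), to 0.11 in injured Ctrl against Ctrl (2346 and 766, in place of 1778 and 1241), to -0.14 in PT-KO against Ctrl and to -0.10 in the interaction (1591 and 2997, in place of 2305 and 2648).

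After I/R, the set stood lower in knockout than in control kidneys. Of the 10 genes, 7 were lower in injured PT-KO than in injured Ctrl at an adjusted p under 0.05 (edgeR, adjusted over all genes) and 0 were higher, where 46.9% of all 15281 genes tested were called, 24.4% lower and 22.5% higher. The 7 were Fasn, Acaca, Elovl5, Scd1, Scd2, Fads1 and Fads2. All 4 desaturases were among them, and Fads2 fell most. The median log2 fold change of the 10 was -0.99, against -0.00489 over all genes tested. Groups did not overlap for 8 of the 10 genes, and the same held for 58.7% of all genes. The lower count was 7 in each of the 6 fits that left out 1 library, apart from 8 without injured Ctrl library 2.

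**Figure D1:**
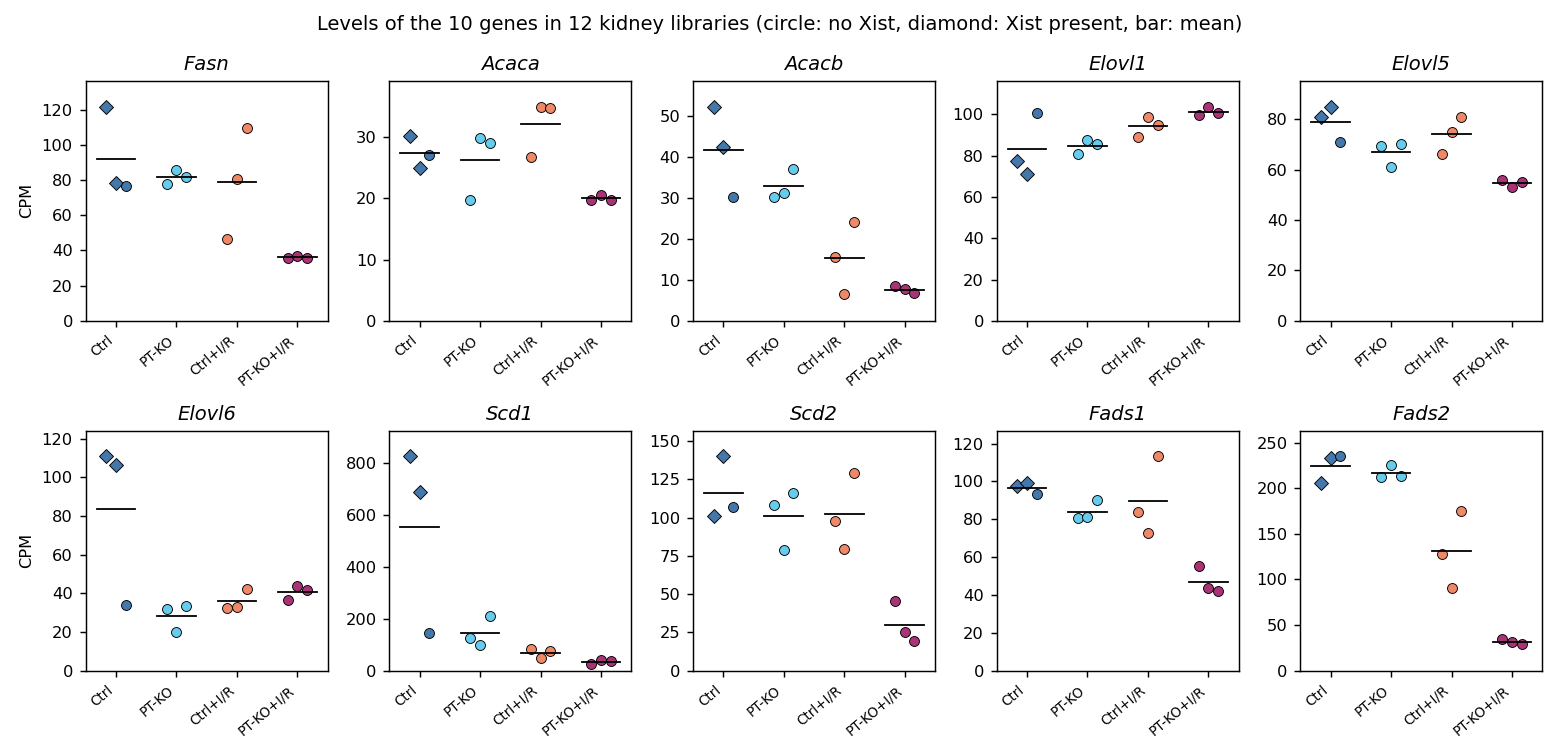
Level of each of the 10 genes in the 12 libraries, in CPM on a linear axis from 0, with 3 libraries a group, a bar at the group mean, and diamonds for the 2 Ctrl libraries that hold Xist. Injured PT-KO libraries lie below every other library for Fasn, Elovl5, Scd1, Scd2, Fads1 and Fads2, while the 2 diamonds stand apart from Ctrl library 3 for Scd1 and Elovl6.

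Within the knockout genotype, I/R moved all 10. In injured PT-KO against PT-KO, 8 were lower and 2, Elovl1 and Elovl6, were higher (edgeR, adjusted p under 0.05), where 65.5% of 15155 genes were called, 32.7% lower and 32.9% higher. The median of the 10 was -1.02 on the log2 scale, against 0.0114 over all genes. In one fit to all 12 libraries the 8 lower calls held and the 2 higher calls did not. Marker sums of several other cell types did not overlap between these groups either. In PT-KO and injured PT-KO they were 4403 to 5165 and 1911 to 2353 CPM for the thick ascending limb. They were 811 to 854 and 216 to 281 for the distal convoluted tubule, and 0.736 to 2.27 and 40.1 to 60.1 for neutrophils. Podocyte, fibroblast and adrenal cortex sums overlapped. The part of these cell types was not tested.

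In injured Ctrl against Ctrl, the effect of I/R in control kidneys, 1 of the 10 was called, Scd1, which was lower, where 19.4% of 15567 genes were called, 7.97% lower and 11.4% higher. The median of the 10 was -0.20. By DESeq2, with no filter and in 1 fit to all 12 libraries, 4 were called, with Acacb, Elovl6 and Fads2 added, and those settings called 4046, 3372 and 4938 of all genes. Without the 2 female-type Ctrl libraries, or with sex as a covariate in the 6 libraries, 0 of the 10 were called, and those fits called 0 and 1 of all genes (2962 and 3910 at an unadjusted p under 0.05). Sex as a covariate in all 12 libraries called 1 of the 10, Fads2, and 2029 of all genes. Leaving out the 2 female-type libraries leaves 1 Ctrl library, assumed to vary like the injured Ctrl libraries. In the sham kidneys, PT-KO against Ctrl, 0 of the 10 were called by edgeR, where 0% of 15291 genes were called (0% higher, 0% lower). By edgeR 4 of the 10 and 2573 of all genes had an unadjusted p under 0.05. DESeq2 called 458 genes, 0 of them among the 10. The sham groups did not overlap for 3 of the 10 (Elovl5, Elovl6 and Fads1), and the same held for 21.0% of all genes. The effect of I/R itself differed between genotypes for 4 of the 10 (edgeR interaction), where 30.6% of 16168 genes were called, 16.4% with a lower and 14.3% with a higher value in the knockout. Of the 4, Scd2, Fads1 and Fads2 had the lower and Elovl6 the higher value. These comparisons share libraries, so they are not independent of each other.

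Without the 2 female-type Ctrl libraries, 1 Ctrl library was left, so log2 values (edgeR) are listed here without a count of calls. In injured Ctrl against Ctrl the log2 values were then Fasn 0.0553, Acaca 0.265, Acacb -0.956, Elovl1 -0.0754, Elovl5 0.0791, Elovl6 0.101, Scd1 -1.03, Scd2 -0.0397, Fads1 -0.0369 and Fads2 -0.816. In PT-KO against Ctrl they were Fasn 0.0901, Acaca -0.0434, Acacb 0.117, Elovl1 -0.252, Elovl5 -0.0873, Elovl6 -0.26, Scd1 -0.00084, Scd2 -0.0808, Fads1 -0.154 and Fads2 -0.115. In the interaction they were Fasn -1.21, Acaca -0.644, Acacb -1.14, Elovl1 0.348, Elovl5 -0.354, Elovl6 0.438, Scd1 -1.03, Scd2 -1.70, Fads1 -0.789 and Fads2 -1.96.

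**Figure D2:**
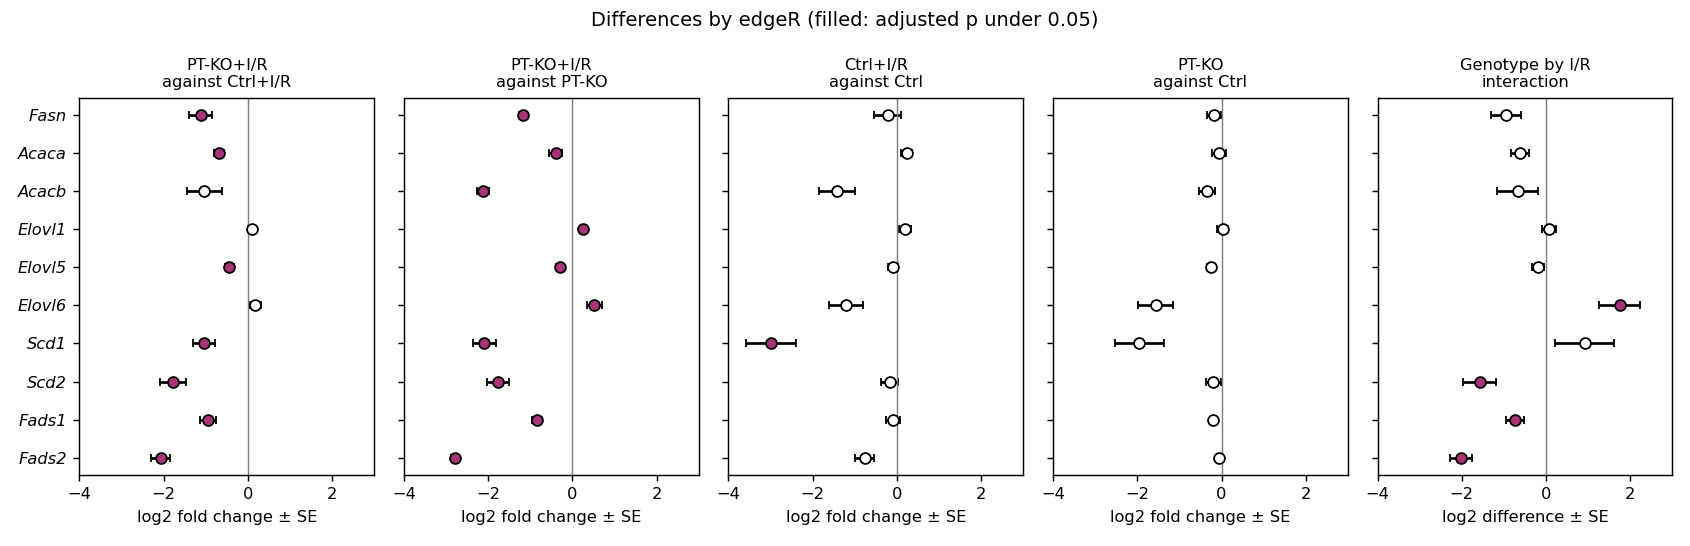
Log2 fold change (horizontal axis, with its standard error) of each gene in 4 comparisons and the interaction of genotype with I/R, from edgeR, with filled points for an adjusted p under 0.05. In injured PT-KO against injured Ctrl 7 points are filled and all lie below 0, with Fads2 at -2.07, and in PT-KO against Ctrl none is filled.

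For a view of the start sites of genes of the set that moved in different directions after I/R, the 250 bases before the gene start are shown for Fasn and Elovl5, which were lower in injured PT-KO than in PT-KO, and for Elovl1, which was higher (RefSeq, GRCm38.p6). They lie at chr11:120824548-120824797 on the minus strand for Fasn, chr9:77917115-77917364 on the plus strand for Elovl5 and chr4:118427843-118428092 on the plus strand for Elovl1. Capitals mark CCAAT, the box bound by NF-Y, on either strand, and CACGTG, the E-box. CCAAT, its reverse complement included, is in 33.8% of 32851 such windows and CACGTG in 6.02%.
Fasn: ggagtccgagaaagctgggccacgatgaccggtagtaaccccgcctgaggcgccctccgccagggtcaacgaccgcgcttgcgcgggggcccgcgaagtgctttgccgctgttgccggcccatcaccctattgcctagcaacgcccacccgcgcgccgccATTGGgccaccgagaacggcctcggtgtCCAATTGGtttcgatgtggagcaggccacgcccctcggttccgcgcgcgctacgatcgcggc
Elovl5: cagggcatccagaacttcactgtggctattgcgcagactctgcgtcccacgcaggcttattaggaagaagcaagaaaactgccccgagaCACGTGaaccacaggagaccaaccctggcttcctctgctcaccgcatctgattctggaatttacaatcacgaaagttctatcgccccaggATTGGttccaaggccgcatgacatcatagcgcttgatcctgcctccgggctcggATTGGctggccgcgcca
Elovl1: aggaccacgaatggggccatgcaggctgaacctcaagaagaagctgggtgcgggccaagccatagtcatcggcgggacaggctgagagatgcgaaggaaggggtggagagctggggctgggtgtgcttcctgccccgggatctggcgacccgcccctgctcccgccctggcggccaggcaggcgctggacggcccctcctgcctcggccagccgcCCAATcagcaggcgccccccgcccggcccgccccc
Fasn held 3 CCAAT matches, at 90, 62 and 59 bases before the start, of which the last 2 overlap each other on opposite strands. Elovl5 held 2, at 71 and 17 bases, and 1 E-box at 161 bases. Elovl1 held 1 CCAAT, at 35 bases. The table matched 7 of the 10 genes, not Scd1, Scd2 and Fads1. The windows of Acaca, Fads2 and Elovl6 held neither motif, and that of Acacb held 1 CCAAT at 87 bases. Elovl1 has a second RefSeq start whose window, chr4:118429451-118429700, held neither, and the one shown is that before the start of the gene in the annotation used here. The windows of Acaca and Acacb, the second of Elovl1, nearly all of that of Fads2 and the end of that of Elovl6 lie within the gene spans given here, downstream of the annotated starts. The letters CACCCCAC, a sterol regulatory element core present in 2.58% of windows, were in none of the 7 genes' windows. A match is only a string of letters here.

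Acaca (ENSMUSG00000020532, chr11:84129672-84401651 in mm10) encodes acetyl-CoA carboxylase 1, the cytosolic form whose malonyl-CoA feeds synthesis. It stood at 30.1, 25.0 and 27.0 CPM in Ctrl libraries 1, 2 and 3, at 19.8, 29.9 and 29.1 in PT-KO libraries 1, 2 and 4, at 26.7, 34.9 and 34.7 in injured Ctrl libraries 1, 2 and 4, and at 19.7, 20.6 and 19.7 in injured PT-KO libraries 2, 3 and 4. The injured PT-KO libraries were close to each other and below all injured Ctrl libraries, but they overlapped PT-KO, whose library 1 was as low. It was lower in injured PT-KO than in injured Ctrl, at a log2 fold change of -0.69 ± 0.13 (SE, n = 3 and 3, edgeR adjusted p = 0.00403). Against PT-KO the value was -0.40 ± 0.15 (edgeR adjusted p = 0.0423), a call that was kept in only 1 of the 6 fits without 1 library, the one without PT-KO library 1, and lost without PT-KO library 2 or 4 or any 1 of the injured PT-KO libraries. In control kidneys I/R gave 0.23 ± 0.13 (adjusted p = 0.236), and the sham genotypes differed by -0.06 ± 0.16 (adjusted p = 0.864), both by edgeR. The interaction was -0.62 ± 0.22 (edgeR adjusted p = 0.0502) and was called without injured Ctrl library 1 or PT-KO library 1, and also by DESeq2, with total counts, with either other filter and after thinning to the shallowest library.

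Acacb (ENSMUSG00000042010, chr5:114146535-114250761) encodes acetyl-CoA carboxylase 2, the form at the outer mitochondrial membrane whose malonyl-CoA restrains fatty acid entry into mitochondria. It stood at 52.3, 42.5 and 30.3 CPM in Ctrl, at 30.4, 31.3 and 37.1 in PT-KO, at 15.5, 6.63 and 24.1 in injured Ctrl and at 8.39, 7.66 and 6.71 in injured PT-KO, in the same library order. Both injured groups lay below both sham groups with no overlap, and injured Ctrl library 2 was as low as injured PT-KO. In the knockout, I/R lowered it by a log2 fold change of -2.13 ± 0.14 (edgeR adjusted p = 6.88e-07). In controls the value was -1.43 ± 0.42, just outside the threshold (edgeR adjusted p = 0.0519) and called by DESeq2, with no filter, in 1 fit to all 12 libraries and without injured Ctrl library 4. The genotypes after I/R differed by -1.03 ± 0.41 (edgeR adjusted p = 0.0686), and the value ran from -0.56 without injured Ctrl library 4 to -1.40 without injured Ctrl library 2, the one fit without 1 library that called it. It was also called by DESeq2 (adjusted p = 0.0221), with total counts (0.0333), with no filter (0.025) and in 1 fit to all 12 libraries (0.0306). The interaction was -0.68 ± 0.48 (edgeR adjusted p = 0.307), whereas leaving out injured Ctrl library 2 gave a call at -1.05 (edgeR adjusted p = 0.0224). The sham genotypes differed by -0.34 ± 0.19 (edgeR adjusted p = 0.377).

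Per length, Acacb stood above Acaca in the sham kidneys and below it in injured PT-KO. CPM per kb of exon (union of the annotated exons) was higher for Acacb than for Acaca in every sham library, with a ratio of 1.99 to 3.08 in Ctrl and 1.86 to 2.72 in PT-KO. The ratio was 1.03, 0.337 and 1.23 in injured Ctrl and 0.755, 0.66 and 0.602 in injured PT-KO. Injured and sham libraries did not overlap in either genotype. With 3 against 3 libraries an exact permutation test cannot give a p below 0.1, and it gave 0.1 for both genotypes (two-sided, Benjamini-Hochberg adjusted p = 0.178 over 16 tests of ratios).

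Fasn (ENSMUSG00000025153, chr11:120805846-120824547) encodes fatty acid synthase, which makes palmitate. It stood at 122, 78.2 and 76.8 CPM in Ctrl, at 78.0, 85.5 and 82.0 in PT-KO, at 46.3, 80.6 and 109.6 in injured Ctrl and at 35.8, 37.1 and 35.9 in injured PT-KO. The 3 injured PT-KO libraries were the lowest of the 12 and nearly equal, while injured Ctrl spread widely and Ctrl library 1 was above the other libraries. Fasn was lower in injured PT-KO than in injured Ctrl at a log2 fold change of -1.12 ± 0.27 (edgeR adjusted p = 0.0109) and than in PT-KO at -1.18 ± 0.08 (edgeR adjusted p = 9.47e-07), and both calls held in all 6 fits without 1 library. In controls I/R gave -0.22 ± 0.31 (edgeR adjusted p = 0.634), a sign that turned without Ctrl library 1 (0.04) or injured Ctrl library 1 (0.05). The interaction was -0.94 ± 0.36 (edgeR adjusted p = 0.0618) and was called without Ctrl library 1 or injured Ctrl library 1, by DESeq2 and with no filter on low counts. The sham genotypes differed by -0.18 ± 0.17 (edgeR adjusted p = 0.62).

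Ctrl library 1, where Fasn was highest, was also the library with the highest levels of Adipoq, Plin1, Cfd and Retn, which mark fat cells. Adipoq, the fat cell hormone adiponectin, stood at 5.83 CPM there and was listed at 0 in Ctrl libraries 2 and 3. Cfd, the fat cell protease adipsin, stood at 28.2 CPM in Ctrl library 1 and at 0 in Ctrl libraries 2 and 3. The summed level of the 8 adipocyte markers was 137 CPM in Ctrl library 1 and at most 42.3 in the other Ctrl libraries. Thrsp, a fat and liver protein tied to lipogenesis, was at 8.39 CPM in Ctrl library 1 and at 0.918 and 2.27 in Ctrl libraries 2 and 3. Across the injured groups the same sum was 64.1 to 85.8 CPM in injured Ctrl and 115 to 138 in injured PT-KO, and Fabp4, which endothelial cells also express, made up most of it, at a mean of 68.5 and 101.4 CPM. Cidec (0.929 and 7.73) and Plin4 (4.46 and 13.3), both lipid droplet proteins, had higher means in injured PT-KO too, without overlap. Adipoq, Plin1, Cfd, Lep and Retn were listed at 0 in all 3 injured Ctrl libraries. In injured PT-KO library 3 Cfd stood at 1.78, Plin1 at 0.801, Adipoq at 0.312 and Lep at 0.267 CPM, in library 4 Cfd at 0.451 and Retn at 0.322, and in library 2 these 5 genes were at 0. The part of fat cell RNA in the Fasn level was not tested.

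Elovl6 (ENSMUSG00000041220, chr3:129532355-129638495) encodes the elongase that takes palmitate to stearate, the next step after Fasn. It stood at 111, 106 and 33.9 CPM in Ctrl, at 31.6, 20.1 and 33.4 in PT-KO, at 32.6, 32.8 and 42.2 in injured Ctrl and at 36.5, 43.5 and 41.8 in injured PT-KO. Ctrl libraries 1 and 2 stood apart from every other library, while Ctrl library 3 was in the range of the other groups. Elovl6 was higher in injured PT-KO than in PT-KO at a log2 fold change of 0.51 ± 0.18 (edgeR adjusted p = 0.0255), a call lost without injured PT-KO library 3 or 4. Injured PT-KO and injured Ctrl overlapped, at 0.18 ± 0.14 (edgeR adjusted p = 0.321), a value of -0.03 with total counts as the scale. In controls the value after I/R was -1.21 ± 0.40 (edgeR adjusted p = 0.069, called by DESeq2, with no filter and in 1 fit to all 12 libraries), and in sham PT-KO against Ctrl it was -1.56 ± 0.42 (edgeR adjusted p = 0.203), the latter without overlap and called with no filter. The interaction was 1.74 ± 0.49 (edgeR adjusted p = 0.0185). Without the 2 female-type Ctrl libraries these 3 values were 0.10 (adjusted p = 0.815), -0.26 (adjusted p = 0.941) and 0.44 (adjusted p = 0.365) by edgeR, so the calls and values of Elovl6 that involve Ctrl rested on those libraries.

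Elovl5 (ENSMUSG00000032349, chr9:77917364-77984519) encodes the elongase that acts between the desaturation steps of polyunsaturated fatty acids. It stood at 81.0, 84.9 and 70.9 CPM in Ctrl, at 69.2, 61.1 and 70.1 in PT-KO, at 66.01, 75.0 and 80.8 in injured Ctrl and at 55.8, 53.1 and 55.1 in injured PT-KO. The injured PT-KO libraries were the lowest 3 of the 12, though the distance was small. Elovl5 was lower in injured PT-KO than in injured Ctrl at a log2 fold change of -0.44 ± 0.10 (edgeR adjusted p = 0.00947), and that call held in all 6 fits without 1 library. Against PT-KO it was lower at -0.30 ± 0.09 (edgeR adjusted p = 0.0122), a call lost without PT-KO library 4 or injured PT-KO library 3. In controls I/R gave -0.09 ± 0.12 (edgeR adjusted p = 0.607), the sham genotypes differed by -0.24 ± 0.10 without overlap (edgeR adjusted p = 0.277), and the interaction was -0.19 ± 0.14 (edgeR adjusted p = 0.318).

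Elovl1 (ENSMUSG00000006390, chr4:118428093-118432953) encodes the elongase that makes very long saturated and monounsaturated chains for sphingolipids. It stood at 77.4, 71.0 and 100.6 CPM in Ctrl, at 80.7, 87.5 and 85.5 in PT-KO, at 89.0, 98.9 and 94.9 in injured Ctrl and at 99.4, 103.7 and 100.4 in injured PT-KO. Injured PT-KO lay narrowly above injured Ctrl and clearly above PT-KO, while Ctrl library 3 was as high as the injured knockout libraries. Its log2 fold change was 0.25 ± 0.08 in injured PT-KO against PT-KO (edgeR adjusted p = 0.0147), a call lost without PT-KO library 1. Injured PT-KO against injured Ctrl gave 0.10 ± 0.09 (edgeR adjusted p = 0.385), injured Ctrl against Ctrl 0.19 ± 0.15 (edgeR adjusted p = 0.374), PT-KO against Ctrl 0.03 ± 0.13 (edgeR adjusted p = 0.934) and the interaction 0.08 ± 0.16 (edgeR adjusted p = 0.754). With total counts as the scale, the value against injured Ctrl was -0.11.

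The ratio of Elovl6 to Elovl5, per length, was higher in injured PT-KO than in the other injured group. It was 0.359, 0.449 and 0.415 in injured PT-KO, 0.27, 0.24 and 0.286 in injured Ctrl, and 0.25, 0.18 and 0.261 in PT-KO. These 3 groups have no female-type library, and injured PT-KO overlapped neither of the others (exact permutation test, two-sided p = 0.1, the smallest possible, adjusted p = 0.178). In Ctrl it was 0.749 and 0.685 in the female-type libraries and 0.262 in library 3.

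Scd1 (ENSMUSG00000037071, chr19:44394455-44407879) encodes the main delta-9 desaturase of liver and fat, which makes oleate from stearate. It stood at 826, 689 and 143 CPM in Ctrl, at 124, 97.7 and 209 in PT-KO, at 83.8, 46.7 and 76.3 in injured Ctrl and at 23.4, 40.1 and 37.2 in injured PT-KO. It was lower in injured control than in sham libraries and lowest in injured knockout libraries, and no group of injured libraries overlapped its sham group or the other injured group. The Ctrl libraries were far apart, with libraries 1 and 2 at 5.76 and 4.80 times the level of library 3. Scd1 was lower in injured PT-KO than in injured Ctrl at a log2 fold change of -1.04 ± 0.27 (edgeR adjusted p = 0.0141) and than in PT-KO at -2.09 ± 0.28 (edgeR adjusted p = 0.000105), and both calls held without any 1 library. In 1 fit to all 12 libraries the first of these calls was lost (-1.03, edgeR adjusted p = 0.107). In controls I/R lowered it by -2.99 ± 0.60 on the log2 scale (edgeR adjusted p = 0.0206), a call lost without Ctrl library 1 or 2 or injured Ctrl library 1. Without both female-type libraries the value was -1.03 ± 0.34 (edgeR adjusted p = 0.253). In sham kidneys PT-KO against Ctrl gave -1.95 ± 0.58 (edgeR adjusted p = 0.21), and -0.00084 ± 0.35 without the 2 libraries. The interaction turned from 0.91 ± 0.71 (edgeR adjusted p = 0.347) to -1.03 without the 2 libraries. Without Ctrl library 3, which leaves only female-type libraries in Ctrl, the sham difference (-2.40) and the interaction (1.37) were both called by edgeR.

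Scd2 (ENSMUSG00000025203, chr19:44293674-44306864) encodes a second delta-9 desaturase, the main form of brain, beside Scd1 on chromosome 19. It stood at 101, 139.9 and 107 CPM in Ctrl, at 108, 78.5 and 116 in PT-KO, at 97.9, 79.5 and 129 in injured Ctrl and at 45.5, 25.2 and 19.5 in injured PT-KO. All 9 libraries of the other groups lay between 78.5 and 139.9 CPM, and the 3 injured PT-KO libraries lay below them. Scd2 was lower in injured PT-KO at a log2 fold change of -1.78 ± 0.31 against injured Ctrl (edgeR adjusted p = 0.00303) and -1.77 ± 0.27 against PT-KO (edgeR adjusted p = 0.000239), with both calls kept in all fits without 1 library. Neither I/R in controls (-0.17 ± 0.20, edgeR adjusted p = 0.568) nor genotype in sham kidneys (-0.20 ± 0.18, edgeR adjusted p = 0.581) passed the test. The interaction was -1.57 ± 0.40 (edgeR adjusted p = 0.0111), called in all 12 fits without 1 library, and -1.70 with an adjusted p of 0.0511 by edgeR without both female-type libraries. Scd1 and Scd2 are close in sequence, and how reads that match both were counted is not given in the sources used here.

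The ratio of Scd1 to Scd2, per length, was 9.16, 5.499 and 1.503 in Ctrl, 1.28, 1.39 and 2.01 in PT-KO, 0.956, 0.656 and 0.661 in injured Ctrl and 0.575, 1.78 and 2.13 in injured PT-KO. Scd1 was thus the more abundant form in all sham libraries and the less abundant in all injured Ctrl libraries. In injured PT-KO, library 2 was below 1 and libraries 3 and 4 were above it, and these libraries overlapped the injured Ctrl range (exact permutation test, two-sided p = 0.4, adjusted p = 0.492).

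**Figure D3:**
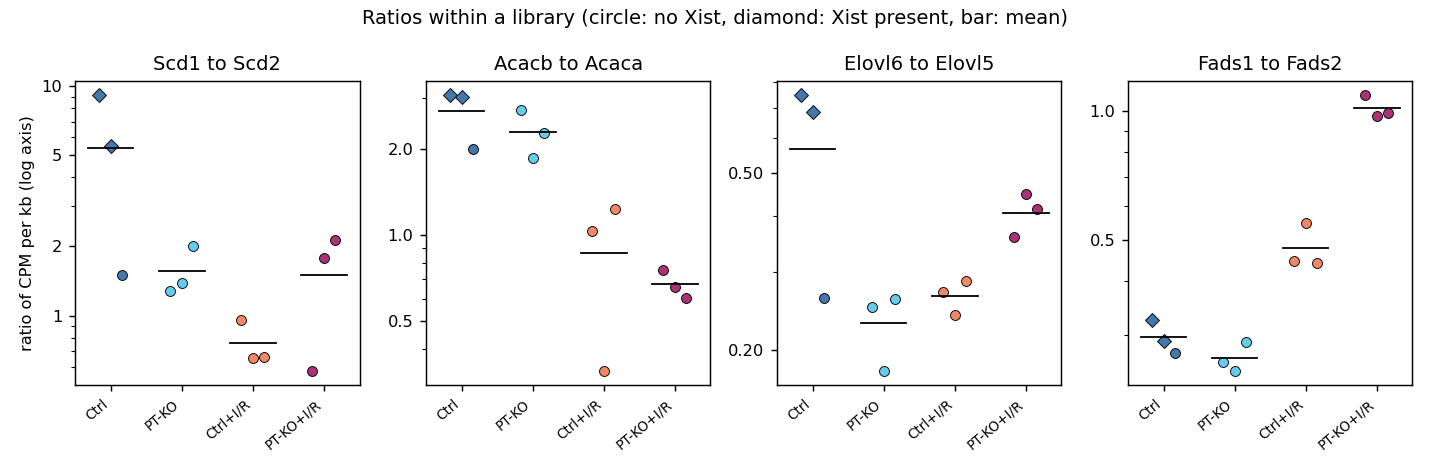
Ratios of CPM per kb between related genes within each library, on log axes, with 3 libraries a group, a bar at the mean and diamonds for the 2 Ctrl libraries that hold Xist. The Fads1 to Fads2 ratio is lowest in the sham groups, 0.442 to 0.548 in injured Ctrl and 0.974 to 1.09 in injured PT-KO.

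Fads2 (ENSMUSG00000024665, chr19:10062765-10101746) encodes the delta-6 desaturase, the first step from linoleic and alpha-linolenic acid to the long polyunsaturated fatty acids such as arachidonic acid. It stood at 206, 233 and 235 CPM in Ctrl, at 213, 225 and 214 in PT-KO, at 128, 90.6 and 175 in injured Ctrl and at 34.7, 30.8 and 29.0 in injured PT-KO. The 6 sham libraries were close together, all injured Ctrl libraries were below them, and all injured PT-KO libraries were below these in turn. It was lower in injured PT-KO than in injured Ctrl at a log2 fold change of -2.07 ± 0.23 (fold of 0.238, edgeR adjusted p = 0.000533) and than in PT-KO at -2.80 ± 0.09 (fold of 0.144, edgeR adjusted p = 3.22e-08). In controls I/R gave -0.77 ± 0.23 (edgeR adjusted p = 0.0545), called without injured Ctrl library 4, by DESeq2, with no filter, in 1 fit to all 12 libraries and, at -0.84 with an adjusted p of 0.048, with sex as a covariate in all 12 libraries. In sham kidneys the genotypes differed by -0.05 ± 0.09 (edgeR adjusted p = 0.795). The interaction was -2.01 ± 0.26 (edgeR adjusted p = 0.000278), called in all 12 fits without 1 library, and -1.96 ± 0.36 (edgeR adjusted p = 0.00786) without both female-type libraries.

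Fads1 (ENSMUSG00000010663, chr19:10182888-10196877) encodes the delta-5 desaturase, which makes arachidonic and eicosapentaenoic acid, and lies next to Fads2 on the other strand with the starts of both facing each other. It stood at 97.5, 99.1 and 93.5 CPM in Ctrl, at 80.9, 81.4 and 89.9 in PT-KO, at 83.7, 72.5 and 113 in injured Ctrl and at 55.2, 43.8 and 42.0 in injured PT-KO. The injured knockout libraries were the lowest 3, and injured Ctrl spread over the sham range. Fads1 was lower in injured PT-KO at a log2 fold change of -0.94 ± 0.19 against injured Ctrl (edgeR adjusted p = 0.00471) and -0.85 ± 0.11 against PT-KO (edgeR adjusted p = 9.13e-05), with both calls kept without any 1 library. In controls I/R gave -0.10 ± 0.17 (edgeR adjusted p = 0.695), and the sham genotypes differed by -0.20 ± 0.08 without overlap (edgeR adjusted p = 0.265). The interaction was -0.73 ± 0.21 (edgeR adjusted p = 0.0216), lost without PT-KO library 4 or injured PT-KO library 3 or 4, and -0.79 (edgeR adjusted p = 0.0903) without both female-type libraries.

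The ratio of Fads1 to Fads2, per length, was higher in injured than in sham libraries of both genotypes, and highest in the injured knockout. It was 0.325, 0.291 and 0.272 in Ctrl, 0.26, 0.247 and 0.288 in PT-KO, 0.446, 0.548 and 0.442 in injured Ctrl and 1.09, 0.974 and 0.991 in injured PT-KO. The values of injured Ctrl lay above both sham groups, and those of injured PT-KO lay above injured Ctrl, each without overlap (exact permutation test, two-sided p = 0.1, the smallest possible, adjusted p = 0.178). The log2 difference was 1.09 between the injured groups and 1.94 between injured PT-KO and PT-KO. Fads1 and Fads2 were thus near equal per length in injured PT-KO, where in sham kidneys Fads2 was the higher.

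Ranked by CPM per kb, Scd1 (113 ± 73.8, SD, n = 3) and Fads2 (68.2 ± 5.01) led in Ctrl, followed by Elovl1 (30.4 ± 5.73), Elovl5 (22.4 ± 2.05), Scd2 (21.2 ± 3.87), Fads1 (20.1 ± 0.595), Elovl6 (13.01 ± 6.71), Fasn (8.43 ± 2.34), Acacb (4.33 ± 1.14) and Acaca (1.60 ± 0.152). The ranges of Scd1 and Fads2, of Elovl5 and Scd2, of Scd2 and Fads1, and of Elovl6 and Fasn overlapped. The place of Scd1 rested on the female-type libraries, since in Ctrl library 3 it stood at 29.3, below Fads2 at 71.3 and Elovl1 at 36.9. In injured PT-KO the order began with Elovl1 (37.1 ± 0.817), Elovl5 (15.5 ± 0.404), Fads1 (9.76 ± 1.49), Fads2 (9.55 ± 0.876) and Scd1 (6.87 ± 1.82), and ended with Elovl6 (6.32 ± 0.566), Scd2 (5.502 ± 2.51), Fasn (3.31 ± 0.0672), Acaca (1.17 ± 0.0291) and Acacb (0.787 ± 0.0874). There the ranges of Fads1 and Fads2, of Scd1 and Elovl6, and of Elovl6 and Scd2 overlapped. Fads2 was the highest of the 10 in injured Ctrl (39.9 ± 12.9) and PT-KO (65.9 ± 2.08), although its range met that of Elovl1 (34.6 ± 1.83) in injured Ctrl. Elovl1, which headed the order in injured PT-KO, was also the gene of the 10 with the smallest spread of log2 CPM over the 12 libraries (0.174).

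The proximal tubule marker sum moved with these results, so levels were also set against it, a description chosen after the levels were seen. Per 1000 CPM of the 9 markers, Fads2 was at 15.5, 18.3 and 16.3 CPM in Ctrl, 15.8, 15.1 and 16.6 in PT-KO, 20.7, 26.4 and 21.1 in injured Ctrl and 12.04, 13.5 and 10.5 in injured PT-KO. On this scale injured PT-KO was still the lowest group, without overlap. Of the 10 genes, Fads2 alone stayed lower without overlap in injured PT-KO against injured Ctrl, Elovl1 and Elovl6 were higher without overlap, and the other 7 overlapped. Against PT-KO on this scale, injured PT-KO was lower without overlap for 1 gene, Fads2, and higher for 6, and 3 overlapped. The 6 held Fasn, Acaca, Elovl5 and Fads1, which were called lower by CPM. In injured Ctrl against Ctrl 6 were higher without overlap, Fads2 among them, and 4 overlapped. Fasn had group means of 13.9 in injured PT-KO and 14.7 in injured Ctrl, and Scd2 of 11.3 and 18.1. In those groups 4 of the 9 markers were themselves lower in injured PT-KO than in injured Ctrl and 0 higher (edgeR), and 9 of 9 lower than in PT-KO. How far the loss of proximal tubule RNA enters the lower levels was not tested.

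**Figure D4:**
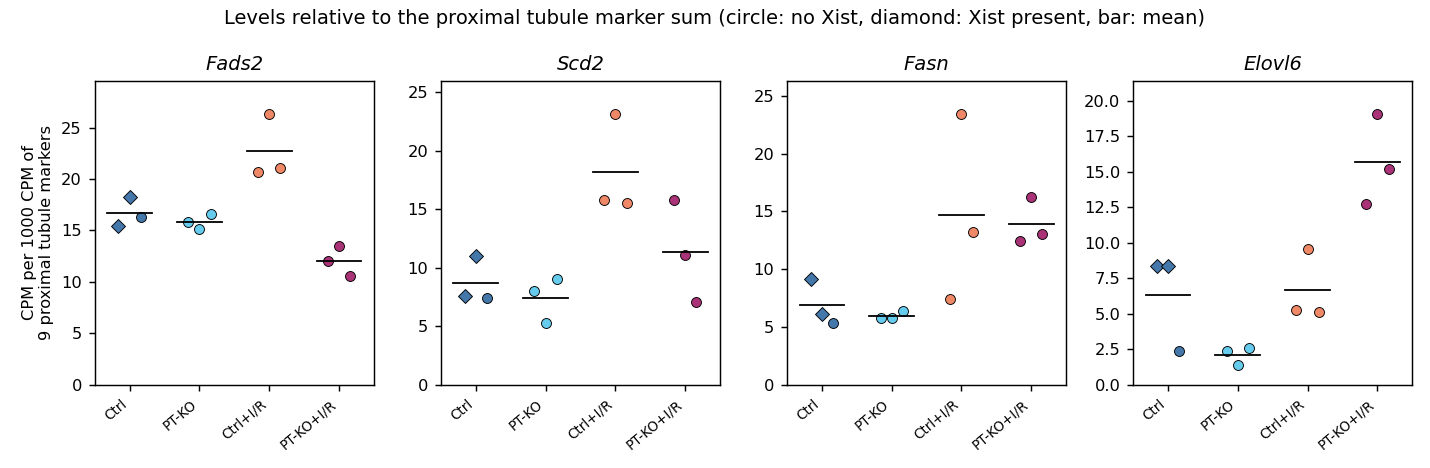
Levels of Fads2, Scd2, Fasn and Elovl6 divided by the summed CPM of 9 proximal tubule markers in the same library (CPM per 1000 CPM, linear axes from 0), with 3 libraries a group and a bar at the mean. For Fads2 the injured PT-KO libraries lie at 10.5 to 13.5, under the 20.7 to 26.4 of injured Ctrl, while Fasn overlaps between these groups and Elovl6 is higher in injured PT-KO.

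The wider pathway was a list of 53 genes, the 10 included, of which 48 were tested and Elovl3, Elovl4, Scd3, Scd4 and Hsd17b8 were too low. In injured PT-KO against injured Ctrl, 29 of the 48 were called (60.4%, against 46.9% of all genes), 10 higher (20.8%, against 22.5%) and 19 lower (39.6%, against 24.4%), with a median log2 fold change of -0.29. The share that was higher was thus near that of all genes. Among the 38 that are not of the 10, 10 were higher and 12 lower, with a median of -0.08. Of 6 desaturases tested, 5 were lower (median -1.40), the fifth being Fads6, a relative of uncertain substrate, and Fads3 was at -0.05 ± 0.12 (adjusted p = 0.762). Of 5 elongases 2 were lower and 0 higher, and of the 6 other enzymes of the elongation cycle 3 were higher and 2 lower. Electron supply was split. Cyb5a and Cyb5r3, the cytochrome b5 and reductase that serve desaturases, were higher, at 0.39 ± 0.13 and 0.51 ± 0.12, and Cyb5b, the form of the outer mitochondrial membrane, was lower, at -0.67 ± 0.15.

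The precursor steps were split too. Acss2, which makes acetyl-CoA from acetate, stood at 141, 95.3 and 207 CPM in injured Ctrl and at 55.9, 43.2 and 40.2 in injured PT-KO, a log2 fold change of -1.68 ± 0.27 (edgeR adjusted p = 0.00222). Acly, which makes acetyl-CoA from citrate, was higher, at 0.55 ± 0.11 (edgeR adjusted p = 0.00523). G6pdx, the NADPH-making entry to the pentose phosphate pathway, rose by 1.14 ± 0.14 (edgeR adjusted p = 0.000742). The other non-members with the smallest adjusted p were Mbtps2, a protease that releases SREBPs, at 0.81, Mbtps1, which cuts before it, at -0.73, Hacd4, a dehydratase of the elongation family, at -1.57, and Ndufab1, the mitochondrial acyl carrier protein, at -0.72, with adjusted p at or under 0.00364. Of the other 2 groups, carboxylation and synthase had 1 higher and 2 lower of 6, and mitochondrial fatty acid synthesis 0 higher and 2 lower of 5.

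Of 12 regulators, 2 were higher and 3 lower in injured PT-KO against injured Ctrl, shares near those of all genes (22.5% and 24.4%). Srebf1, the gene of SREBP-1, stood at 36.2, 44.1 and 65.5 CPM in injured Ctrl and at 35.6, 38.1 and 35.4 in injured PT-KO, at -0.42 ± 0.20 (edgeR adjusted p = 0.12). It was higher in injured PT-KO than in PT-KO, at 0.31 ± 0.09 (edgeR adjusted p = 0.0126), where 8 of the 10 genes were lower. In injured Ctrl against Ctrl it was at 0.42 ± 0.21 (edgeR adjusted p = 0.186), in PT-KO against Ctrl at -0.32 ± 0.10 (edgeR adjusted p = 0.214), and its interaction was -0.10 ± 0.24 (edgeR adjusted p = 0.773). Insig1, which holds SREBPs in the endoplasmic reticulum and is itself an SREBP target, was lower in injured PT-KO than in injured Ctrl at -0.80 ± 0.28 (edgeR adjusted p = 0.0465) and than in PT-KO at -0.45 ± 0.18 (edgeR adjusted p = 0.048). Mlxipl, the gene of ChREBP, was at -0.33 ± 0.14 (edgeR adjusted p = 0.0818) against injured Ctrl and lower than in PT-KO at -0.51 ± 0.13 (edgeR adjusted p = 0.00663). The remaining values of Insig1 and Mlxipl, 0.28 and -0.30 in injured Ctrl against Ctrl, -0.08 and -0.13 in PT-KO against Ctrl, and -0.72 and -0.20 for the interaction, did not pass the test.

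**Figure D5:**
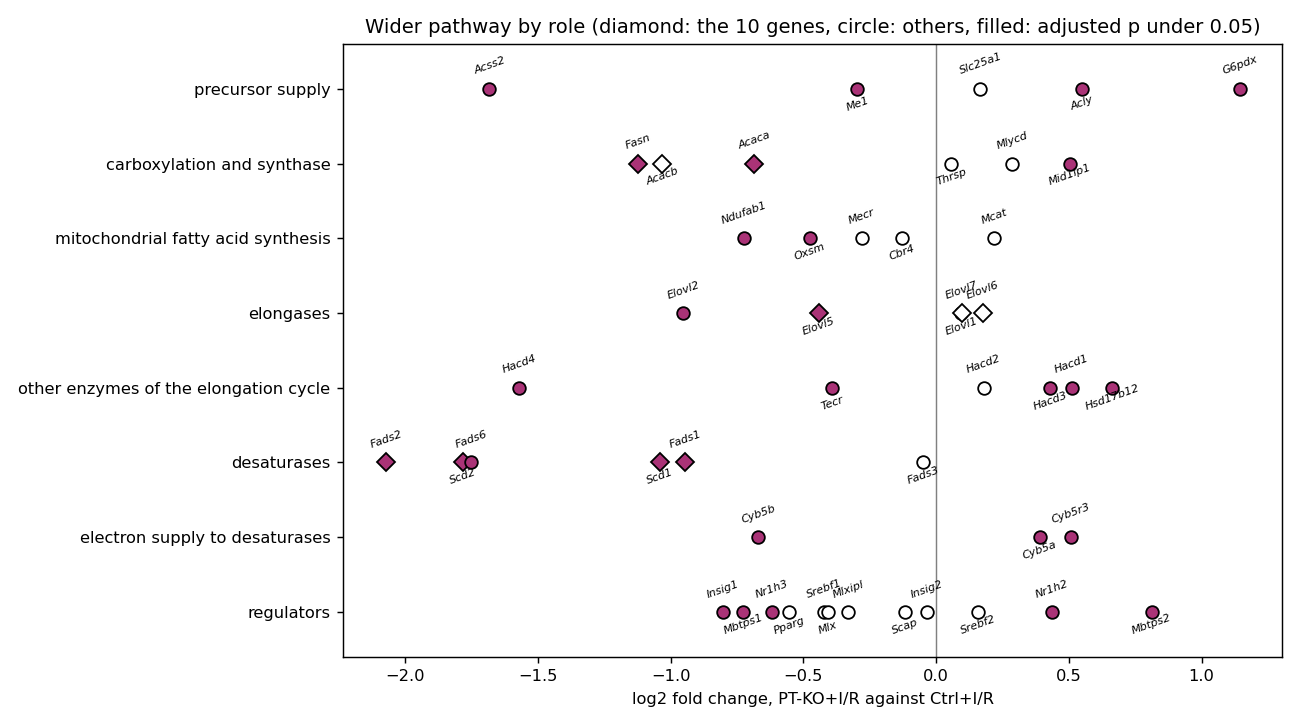
Log2 fold change in injured PT-KO against injured Ctrl (horizontal axis) of the 48 tested genes of the wider pathway, grouped by role on the vertical axis, with diamonds for the 10 genes and filled points for an edgeR adjusted p under 0.05. Of the 6 desaturases 5 are filled and lie below 0, while precursor supply, the elongation cycle and the regulators have filled points on both sides.

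In injured PT-KO against PT-KO, 40 of the 48 wider pathway genes were called (83.3%, against 65.5% of all genes), 12 higher and 28 lower (58.3% lower, against 32.7%, median -0.45), and again 5 of 6 desaturases were lower and 0 higher. The non-members with the smallest adjusted p were Acss2 (-2.84), Fads6 (-3.09), G6pdx (1.84), Me1, the NADPH-making malic enzyme (-1.23), Cyb5b (-1.24) and Oxsm, the mitochondrial ketoacyl synthase (-1.15). In injured Ctrl against Ctrl, 8 of 48 were called, 4 higher and 4 lower, a share of 16.7% that was near the 19.4% of all genes. All 8 calls were lost with sex as a covariate in the 6 libraries and without Ctrl library 1 or 2 alone. Those fits called 1, 379 and 413 of all genes, in place of 3019. Sex as a covariate in all 12 libraries called 12 of 48 and 2029 of all genes. There were 2 of 48 called without injured Ctrl library 1 (833 of all genes), 4 without injured Ctrl library 2 (1635), and 12 without injured Ctrl library 4 (4061). The pathway counts thus rose and fell with the counts of all genes in the fits without 1 injured Ctrl library. Apart from Scd1 the 8 were G6pdx (0.92), Mid1ip1, which activates acetyl-CoA carboxylase (0.75), Cyb5r3 (0.75), Hacd1 (0.69), Ndufab1 (-0.55), Fads6 (-1.60) and Tecr, the last step of elongation (-0.47). In PT-KO against Ctrl 0 of 48 were called by edgeR and 3 by DESeq2 (458 of all genes). Without Ctrl library 3 edgeR called 13 of 48 and 1930 of 15597 genes. That fit leaves only female-type libraries in Ctrl and none in PT-KO, so sex and genotype cannot be told apart in it. With all 6 libraries, the smallest adjusted p of non-members were those of Cyb5r3 (0.62), Ndufab1 (-0.33), Hsd17b12 (0.52), Srebf2 (-0.26), Elovl2 (-0.93) and Srebf1, between 0.208 and 0.214 by edgeR. The interaction called 16 of 48, 5 higher and 11 lower, a share of 33.3% near the 30.6% of all genes. With sex as a covariate in all 12 libraries it called 9 of 48 and 3233 of 16168 genes. The 16 had Mbtps1 (-0.74), Acss2 (-2.09), Oxsm (-0.77), G6pdx (0.93), Mbtps2 (0.63) and Nr1h3, the gene of LXR alpha (-0.78), at the smallest adjusted p.

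For each of the 10, the 3 genes with the nearest profile over the 12 libraries were listed by the root mean square difference of centred log2 CPM, with no test. Fads2, whose own profile had a spread of 1.22, was nearest to Mgat3 (0.112), to Anpep, a brush border aminopeptidase of the proximal tubule (0.112), and to Hps5 (0.133). Fads1 was nearest to Idh3a (0.101), Nme4 (0.106) and Gm4459 (0.125). Fasn was nearest to Zfp324 (0.185), Pfkl (0.219) and Celsr1 (0.223), and Acaca to Pigu (0.125), Dnajc11 (0.139) and Wee1 (0.154). Acacb was nearest to Rdh16 (0.185), Slit2 (0.20) and Atp6v1c2 (0.21). Scd2 was nearest to Pigh (0.211), Rab3il1 (0.242) and 6330418K02Rik (0.248). Scd1, whose spread of 1.59 was the largest of the 10, was nearest to Plppr4 (0.474), AC138228.2 (0.534) and Adamts8 (0.543). Elovl6 was nearest to Kcnk1 (0.278), Spidr (0.326) and Pcolce2 (0.327), Elovl1 to Prmt5 (0.067), Ehd1 (0.0791) and Stim2 (0.0802), and Elovl5 to Anks6 (0.0893), Adam17 (0.0948) and Slc4a2 (0.0955).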

How the data were processed

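RNA of kidney cortex from 12 samples was sequenced on an Illumina HiSeq instrument. The authors aligned reads with HISAT2 2.0.4 to mm10 (submitters' processing notes) and deposited raw counts per Ensembl gene, with no normalization. The counting program, annotation and strand setting are not given in the sources used here. A row names a gene by its symbol, and exon lengths and coordinates came from GENCODE M21 (mm10). One Ctrl column carries the number 3 where the labels list 1, 2 and 4, so it was taken as a Ctrl library with no number of its own.

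Each comparison used the 6 libraries of its groups and the interaction all 12 (edgeR 4.0.16, R 4.3.3, filterByExpr with a minimum count of 10, trimmed mean of M values, quasi-likelihood F test, Benjamini-Hochberg over all genes tested, threshold 0.05). All 10 genes passed the filter in each comparison. The standard error is the log2 fold change over the square root of F. The study's methods do not give a count model. Tests were run on simulated counts first. Ratios used an exact permutation test. No 2 libraries of a group had counts that agreed within sampling noise (chi-square per degree of freedom 8.21 to 66.3 over 12 pairs). DESeq2 1.42.0, total count scaling, other filters, thinning to the shallowest library, a fit to all libraries, sex, the replicate number and leaving out libraries were alternatives. Leaving out both female-type Ctrl libraries was added after seeing the data.

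The 10 genes, the pathway and marker lists and the rule for named genes were chosen with earlier results of these data known. Named were the 10, the 6 other pathway genes with the smallest adjusted p in each comparison, Srebf1, Insig1, Mlxipl, Gfer and the nearest profiles. Genes named beyond that rule, Acly, Fads3, Cyb5a, Cyb5b, Cyb5r3 and Hacd1 among them, were chosen after their values were seen. Counts limit precision. Shallower libraries carry more counting error, and the lowest of the 10 genes, Acacb, had 98 counts or more in each library.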

Additional observations from a re-analysis of the deposited data

Results flagged for a closer look

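For 4 of the 10 genes the effect of I/R differed between the genotypes by edgeR's test of the interaction, given as the log2 effect in the knockout minus that in controls, where 30.6% of all genes were called. Scd2 had -1.57, Fads1 -0.73 and Fads2 -2.01, and Elovl6 had 1.74. Without both Ctrl libraries that hold Xist the values were -1.70, -0.79, -1.96 and 0.44, of which only that of Fads2 had an adjusted p under 0.05 (0.00786). With the replicate number as a block, Fads2 and Elovl6 kept the call, Scd2 (-1.44) and Fads1 (-0.623) lost it and Scd1 gained it (1.48). In that fit Ctrl library 3 and injured PT-KO library 3 each stood alone in a block. The Ctrl side thus rested on the 2 libraries that hold Xist. Groups of 3 libraries, as all are here, were not checked for outliers with Dixon's ratio.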

How the results depend on the processing

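The 10 genes kept a count of 7 to 8 lower calls between the injured groups under each alternative except the replicate block (in 1 fit to all 12 libraries with Acacb in place of Scd1), and of 7 to 10 calls in injured PT-KO against PT-KO. Between the injured groups, all genes called lower in these fits ran from 2567 without injured PT-KO library 4 to 5080 with total counts. In injured PT-KO against PT-KO, all genes called ran from 8437 with the replicate block to 10699 with no filter. Same-numbered libraries did not deviate together (12 pairs, correlations -0.186 to 0.181), so the numbers do not pair them. With the replicate number as a block, 3 of the 10 were called between the injured groups (Fasn, Scd1 and Fads2, and 1683 of all genes in place of 7169). Of the 48 wider pathway genes, 5 were called there. Injured Ctrl library 1 and injured PT-KO library 3 each stood alone in a block, so that fit rested on libraries 2 and 4. The block called 4 of the 10 in injured Ctrl against Ctrl (3612 of all genes) and 3 in PT-KO against Ctrl (1378 of all genes). In comparisons with Ctrl, Ctrl library 3 stood alone in its block, so the Ctrl side rested on the 2 female-type libraries. In injured Ctrl against Ctrl, DESeq2, no filter and 1 fit to all 12 libraries called 4 each (4046, 3372 and 4938 of all genes), sex in the 6 libraries or both Xist libraries left out called 0, sex in all 12 libraries called 1 (2029 of all genes), and leaving out 1 library called 0 to 3. In PT-KO against Ctrl no filter called 2 (388 of all genes), and leaving out 1 library called 0 to 3. The 3 were called without Ctrl library 3 (1930 of all genes), where sex and genotype cannot be told apart. For the interaction, sex in all 12 libraries called 2 of the 10 and 3233 of 16168 genes. The replicate block called 3, 2 higher (Scd1 and Elovl6) and 1 lower (Fads2), and 3215 of all genes. Other settings that left 1 library out changed few calls, and the cause of these changes was not tested.

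Signs turned for values that did not pass the test. With total counts, Elovl1 was -0.11 and Elovl6 -0.0286 between the injured groups, Elovl5 0.0233 and Fads1 0.0119 in injured Ctrl against Ctrl, and Elovl1 -0.0893 in PT-KO against Ctrl and -0.0201 in the interaction, where the replicate block gave -0.11. With sex in 12 libraries, sex in 6 and both Xist libraries left out, injured Ctrl against Ctrl gave Fasn 0.0345, 0.0312 and 0.0553, Elovl1 -0.0949, -0.0974 and -0.0754, Elovl5 0.059, 0.0567 and 0.0791, and Elovl6 0.0793, 0.078 and 0.101. The same settings gave, in PT-KO against Ctrl, Fasn 0.0913, 0.0909 and 0.0901, Acacb 0.118, 0.117 and 0.117, and Elovl1 -0.251, -0.251 and -0.252. The interaction of Scd1 was -1.03 with sex in 12 libraries and -1.03 without both Xist libraries. Leaving out 1 library, values ran for Fasn from -0.541 to 0.0451 and Fads1 from -0.302 to 0.0471 in injured Ctrl against Ctrl, for Fasn from -0.291 to 0.0741, Acaca from -0.161 to 0.109 and Elovl1 from -0.074 to 0.188 in PT-KO against Ctrl, and for Elovl1 from -0.0877 to 0.178 in the interaction. Over all results, 340 values kept direction and side of the threshold, 30 gained and 20 lost the threshold and 30 turned sign, and for the fits without 1 library these were 322, 13, 16 and 9. Depth limits the low genes of the list most.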
